A study of Mus musculus with 6 samples.

Results

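The genes described here encode the phase II transferases of mouse liver in the families Gst (glutathione S-transferases), Ugt (UDP-glucuronosyltransferases) and Sult (cytosolic sulfotransferases). They were chosen by gene symbol, as all symbols that begin with Gst and a class letter a, k, m, o, p or t, with Ugt1a, Ugt2a, Ugt2b or Ugt3a, or with Sult and a number. This gave 58 of the 23291 listed genes, 20 Gst, 20 Ugt and 18 Sult. Their RNA was measured by sequencing of liver from C57BL/6 mice of no stated sex, age or genotype other than strain. The dabigatran group received a Western (high fat) diet with dabigatran etexilate at 10 mg per gram of diet for 3 months, and the diet group received the Western diet without it for 3 months. Dabigatran etexilate is taken by mouth and converted in the body to dabigatran, which blocks the clotting protease thrombin. Each group was deposited as 3 tables (replicates 0, 1 and 2), but those of dabigatran replicates 0 and 1 held the same value for all 23291 genes and count as 1 library, called dabigatran replicate 1. The comparison therefore had n = 2 dabigatran libraries and n = 3 diet libraries.

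Phase II enzymes attach a polar group to drugs, hormones, bile acids, bilirubin and reactive products of metabolism, so that these can leave the cell and be excreted in bile or urine. Gst enzymes use glutathione, most Ugt enzymes use UDP-glucuronic acid in the endoplasmic reticulum, and Sult enzymes use the activated sulfate donor PAPS in the cytosol. Liver is a main site of all of them, and several respond to the transcription factor NRF2 or to nuclear receptors such as CAR and PXR. In humans, dabigatran itself is conjugated to glucuronic acid.

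Values are FPKM as the authors deposited them, by the usual definition fragments scaled to gene length and to the mapped fragments of the library. Differences were fitted with limma on log2(FPKM + 0.5), which understates the change of low genes. In each library 10006 to 10399 genes had 1 FPKM or more. Depth read from the steps between low values, relative to diet replicate 0, was 0.857 and 0.772 in dabigatran replicates 1 and 2. It was 0.761 and 0.967 in diet replicates 1 and 2. Any scaling of the libraries to each other, which the sources used here do not give, would be part of these depths. The test covered the 10247 genes that reached 1 FPKM in 3 or more of the 5 libraries. That replicates are separate animals rests on the design text's use of the word mice, and if they are not, p-values measure a spread that may be technical. Liver is a mixture of cells, so fewer cells of a type and less RNA per cell cannot be told apart in these values.

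Most Gst genes of the mu, alpha and theta classes had lower values with dabigatran, and the 2 pi class genes and 3 Sult1 genes had higher values. Among Ugt genes, 11 fitted log2 differences lay below 0 and 4 above, beside 4932 below and 5315 above of 10247 genes. Some of the 11 were close to 0, such as Ugt2a3 (-0.001), Ugt1a1 (-0.02) and Ugt3a2 (-0.08), as was Ugt2b1 (0.08) of the 4. None of these differences passed limma's test at an adjusted p of 0.05 over all genes. Of the 58 genes, 38 were tested, 17 Gst, 15 Ugt and 6 Sult, and 14 were listed at 0 in all 5 libraries. Limma called 0 of the 38, beside 44 of 10247 genes (0.429%), of which 13 were higher (0.127%) and 31 lower (0.303%). The split of these 44 depended on scaling: upper-quartile scaling gave 17 higher and 25 lower, and quantile normalization gave 11 higher and 16 lower. At an unadjusted p under 0.05, 16 members were lower and 5 higher, beside 9.13% of all tested genes lower and 6.87% higher. By family these were 9 Gst, 6 Ugt and 1 Sult lower, and 2 Gst, 0 Ugt and 3 Sult higher. Both dabigatran libraries lay below all 3 diet libraries for 17 members and above all 3 for 6, beside 17.2% of all tested genes in each direction. The 6 untested genes with a value above 0 were Gsta1, Sult1c2, Ugt1a7c, Ugt1a10, Ugt2a1 and Ugt2a2. One tested gene, Gstm3, reached 1 FPKM in no dabigatran library and so was tested through its diet values alone.

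The median fitted log2 difference was -0.96 over the tested Gst genes, -0.17 over the Ugt genes and 0.56 over the Sult genes, beside 0.02 over all tested genes. In the plot of fitted differences, the Gst genes run from Gstm3 at -3.76 to Gstp2 at 1.38.

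**Figure D1:**
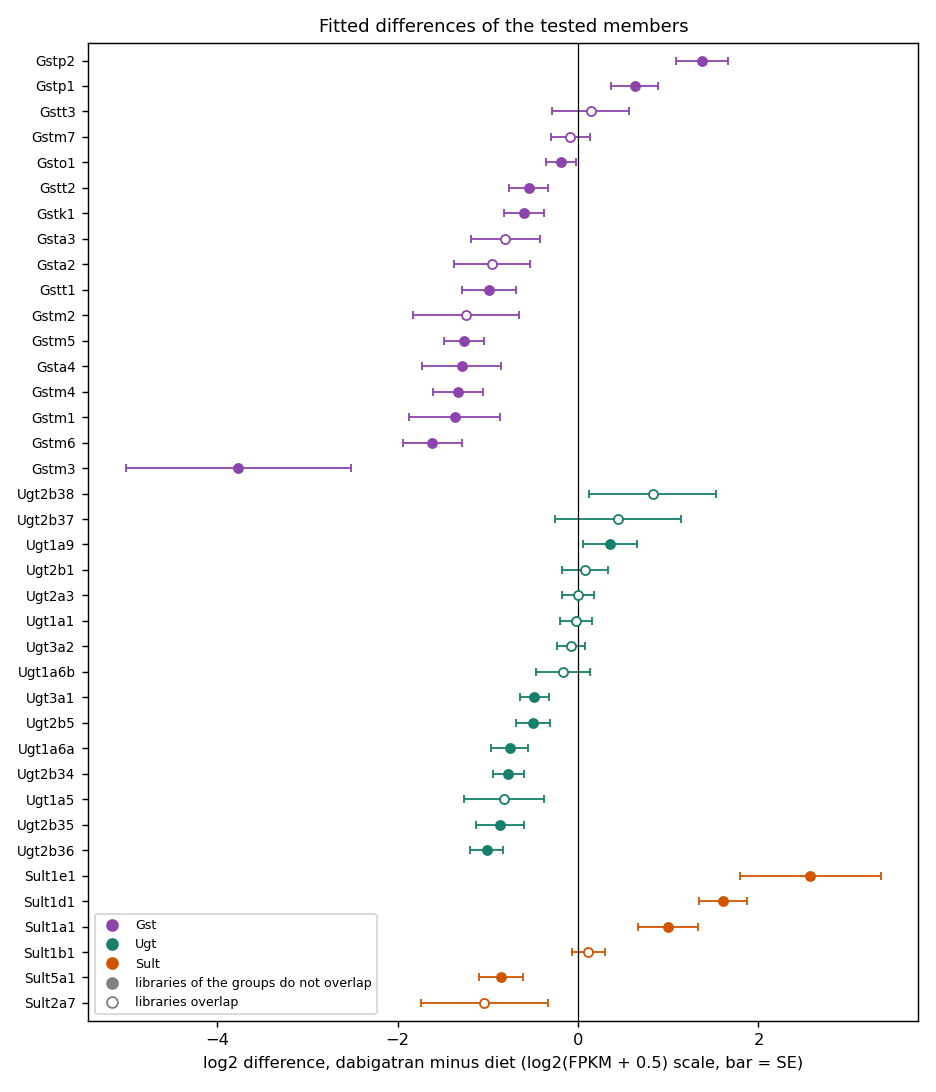
Fitted log2 difference (x axis, dabigatran minus diet, log2(FPKM + 0.5) scale) of the 38 tested phase II genes (y axis), coloured by family. Points are limma estimates and bars are SE. Filled points are genes whose 2 dabigatran libraries do not overlap the 3 diet libraries. Gstm3 is lowest at -3.76 and Sult1e1 highest at 2.58.

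The mu class of Gst genes lies in 1 cluster of 7 genes on chromosome 3 (GRCm38, positions 107895821 to 108044894, 149.1 kb). Mu class enzymes conjugate epoxides and other electrophiles to glutathione, and Gstm1 is the main one in mouse liver. Gstm1 had 209.5 and 232 FPKM in dabigatran livers, against 673, 256 and 1067 FPKM in diet livers. The dabigatran libraries lay just below diet replicate 1 and far below diet replicates 0 and 2. Its log2 difference was -1.36 ± 0.51 (SE, n = 2 and 3), with an adjusted p of 0.25 by limma.

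Gstm6, Gstm4 and Gstm5 showed a smaller spread within the groups. Gstm6 had 13.2 and 13.5 FPKM with dabigatran, against 45.6, 26.4 and 61.0 FPKM in diet livers, and a log2 difference of -1.61 ± 0.32 (limma adjusted p = 0.0751). Gstm4 had 10.6 and 11.4 FPKM with dabigatran, against 33.3, 19.4 and 35.4 FPKM in diet livers. For both genes the groups did not overlap, and for Gstm4 the log2 difference was -1.33 ± 0.27 (limma adjusted p = 0.0793). Gstm5 had 3.28 and 3.64 FPKM with dabigatran, against 7.87, 8.86 and 10.5 FPKM in diet livers, with no overlap and a log2 difference of -1.27 ± 0.22 (limma adjusted p = 0.0674). The Gstm5 values correspond to 5 and 5 fragments against 14, 12 and 18, the smallest whole numbers in the ratio of the values, which cover counting error only. An exon of a gene on the opposite strand, 4933431E20Rik, overlaps Gstm5, and the strand used in counting is not given in the sources used here.

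Gstm3 had 0.927 and 0.514 FPKM with dabigatran, against 27.4, 1.57 and 75.2 FPKM in diet livers. These are 2 and 1 fragments against 69, 3 and 183, so diet replicate 1 lay beside the dabigatran libraries and far from the other diet libraries. The log2 difference was -3.76 ± 1.25 (limma adjusted p = 0.209), and it was -5.26 without diet replicate 1 and -2.66 without diet replicate 2. Of its 50-base windows, 28.8% occur in another gene or pseudogene. Gstm2 had 20.3 and 22.0 FPKM with dabigatran, against 64.1, 19.2 and 104 FPKM in diet livers, and diet replicate 1 was the lowest of the 5. Its log2 difference was -1.24 ± 0.59 (limma adjusted p = 0.351), and -1.93 without diet replicate 1. Gstm7 overlapped throughout, with 23.5 and 30.3 FPKM with dabigatran and 31.0, 23.2 and 31.7 FPKM in diet livers.

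**Figure D2:**
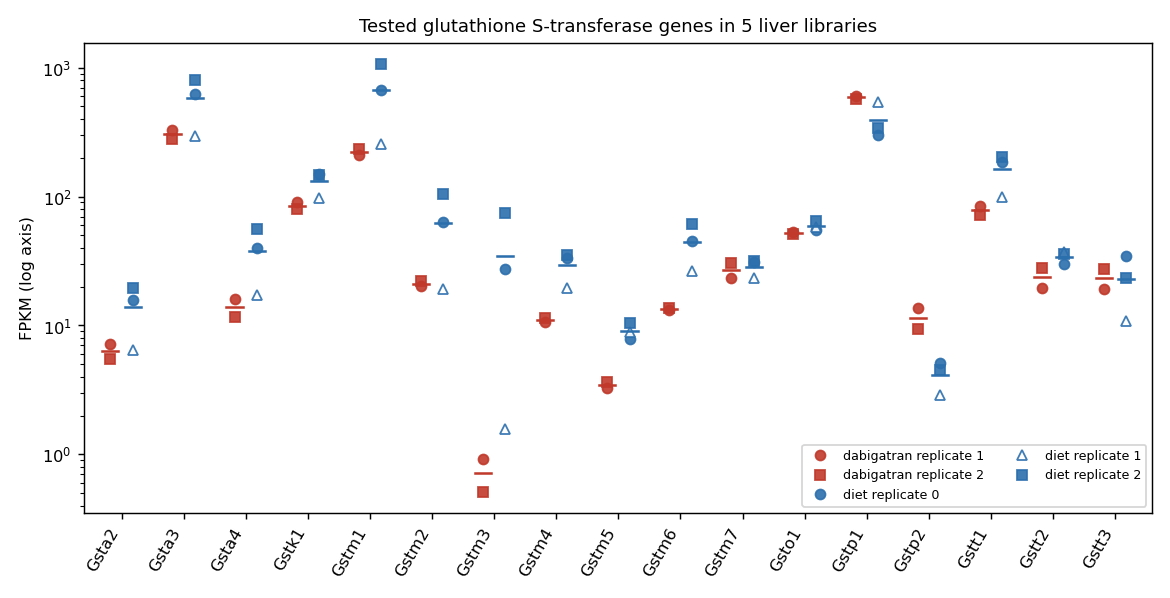
Level (y axis, FPKM, log axis) of each tested Gst gene (x axis) in the 2 dabigatran and 3 diet libraries. Points are libraries and short lines are group means. The open triangle is diet replicate 1, which lies near the dabigatran libraries for Gstm1, Gstm2 and Gstm3.

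NRF2 binds the antioxidant response element, whose core was searched as TGACNNNGC on both strands in the 250 bases before each RefSeq start (GRCm38.p6). A match was in 10.2% of 32851 windows of all genes, and in 3 of the 59 windows of members, those of Gsta3, Gstm5 and Gstm7. The windows of Gsta3 (chr1:21240335-21240584, plus strand) and Gstm5 (chr3:107895604-107895853, plus strand) are shown because they hold the core upstream of an alpha and a mu gene described here. Capitals mark the core, which starts 121 bases before the start in Gsta3 and 42 bases before it in Gstm5. A match is a description of the letters and not a binding site.
Gsta3: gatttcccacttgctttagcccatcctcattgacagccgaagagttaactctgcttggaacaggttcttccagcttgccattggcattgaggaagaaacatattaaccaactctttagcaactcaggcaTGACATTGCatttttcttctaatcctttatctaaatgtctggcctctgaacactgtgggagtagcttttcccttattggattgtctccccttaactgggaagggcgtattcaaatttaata
Gstm5: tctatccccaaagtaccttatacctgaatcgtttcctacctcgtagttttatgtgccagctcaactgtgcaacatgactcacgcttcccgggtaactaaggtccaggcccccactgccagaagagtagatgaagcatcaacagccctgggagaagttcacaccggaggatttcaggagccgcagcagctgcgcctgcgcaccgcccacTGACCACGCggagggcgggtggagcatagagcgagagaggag

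Alpha class enzymes conjugate aflatoxin epoxide and products of lipid peroxidation. Gsta3, the most abundant alpha gene here, had 330.5 and 280.4 FPKM with dabigatran, against 629, 297 and 808 FPKM in diet livers. Diet replicate 1 lay between the dabigatran libraries, so the groups overlapped, and the log2 difference was -0.81 ± 0.38 (limma adjusted p = 0.350). Gsta4, which conjugates the lipid aldehyde 4-hydroxynonenal, had 16.0 and 11.6 FPKM with dabigatran, against 40.1, 17.3 and 56.1 FPKM in diet livers. The groups did not overlap, though diet replicate 1 was close to dabigatran replicate 1, and the log2 difference was -1.29 ± 0.44 (limma adjusted p = 0.215). Gsta2 had the same order of libraries as Gsta3 at lower levels, with 7.13 and 5.54 FPKM with dabigatran and 15.9, 6.42 and 19.6 FPKM in diet livers. Gsta1 was listed at 0 in both dabigatran libraries and diet replicate 1, and at 1.82 and 3.13 FPKM in diet replicates 0 and 2. Its 50-base windows occur elsewhere in 90.5% of cases and those of Gsta2 in 49.8%.

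Gstk1, a glutathione transferase of mitochondria and peroxisomes, had 90.04 and 80.1 FPKM with dabigatran, against 148, 97.8 and 147 FPKM in diet livers. The dabigatran libraries lay below all diet libraries, and the log2 difference was -0.60 ± 0.22 (limma adjusted p = 0.251). Gstt1, a theta class enzyme that acts on small halogenated compounds, had 84.5 and 72.2 FPKM with dabigatran, against 185, 99.6 and 204 FPKM in diet livers. These did not overlap either, with a log2 difference of -0.99 ± 0.30 (limma adjusted p = 0.177). Gstt2, of the same class, had 19.4 and 27.7 FPKM with dabigatran, against 29.9, 37.1 and 35.9 FPKM in diet livers, and a log2 difference of -0.55 ± 0.21 (limma adjusted p = 0.268). In this gene diet replicate 1 was the highest library. Gstt3 overlapped, at 19.1 and 27.6 FPKM with dabigatran and 34.8, 10.9 and 23.5 FPKM in diet livers. Gsto1, an omega class thioltransferase, had a log2 difference of -0.19, and Gsto2 and Gstt4 were listed at 0 in all libraries.

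The 2 pi class genes were the Gst genes with higher values in both dabigatran libraries than in any diet library. Of all tested genes, 17.2% lay above in this way. Gstp1 had 604 and 576 FPKM with dabigatran, against 300.5, 544 and 341 FPKM in diet livers. Diet replicate 1 came close to the dabigatran libraries, and the log2 difference was 0.63 ± 0.26 (limma adjusted p = 0.294). Gstp2 had 13.6 and 9.42 FPKM with dabigatran, against 5.09, 2.87 and 4.51 FPKM in diet livers. Here diet replicate 1 was the lowest, and the log2 difference was 1.38 ± 0.29 (limma adjusted p = 0.0835), on 16 and 10 fragments against 7, 3 and 6. Gstp1 and Gstp2 lie side by side on chromosome 19 and share sequence, with 33.7% of the windows of Gstp1 and 54.3% of those of Gstp2 found elsewhere, so the counting could move fragments between them.

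Summed over the 20 Gst genes of the symbol rule, which leaves out Gstz1 and the Mgst genes, signal was 1519 and 1456 FPKM with dabigatran, against 2328, 1526 and 3092 FPKM in diet livers. Pi class genes held 40.7% and 40.2% of it with dabigatran, against 13.1%, 35.9% and 11.2% in diet livers. Mu class genes held 18.5% and 21.5% with dabigatran, against 37.9%, 23.3% and 44.8% in diet livers. In make-up as in total, diet replicate 1 lay nearer the dabigatran libraries than the other diet libraries did.

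**Figure D3:**
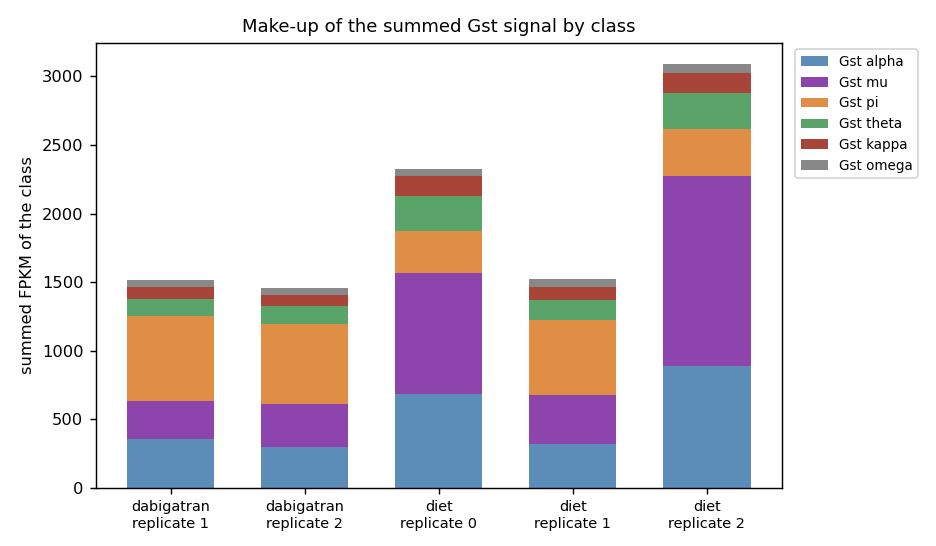
Summed FPKM of Gst genes by class (y axis, stacked from 0) in each of the 2 dabigatran and 3 diet libraries (x axis). Diet replicate 1, at 1526 FPKM in total, stands near the dabigatran libraries at 1519 and 1456 FPKM, and below diet replicates 0 and 2 at 2328 and 3092 FPKM.

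Among the sulfotransferases, 3 Sult1 genes were higher in both dabigatran libraries than in every diet library, as were 17.2% of all tested genes. Sult1d1, which in mice sulfates catecholamines and other small phenols, had 161 and 254 FPKM with dabigatran, against 56.9, 86.8 and 57.9 FPKM in diet livers. The lowest dabigatran library was well above the highest diet library, and the log2 difference was 1.61 ± 0.27 (limma adjusted p = 0.0591). After upper-quartile scaling of the libraries it passed the threshold, with an adjusted p of 0.0497 by limma. In the other alternatives that left out no library it did not pass, with limma adjusted p-values of 0.0537 to 0.1325. Quantile normalization was among these. Sult1a1, a phenol sulfotransferase, had 151 and 361 FPKM with dabigatran, against 122, 103 and 127 FPKM in diet livers. Dabigatran replicate 2 carried most of this difference, whose log2 value was 1.00 ± 0.33 (limma adjusted p = 0.212) and 0.37 without that library, against 1.62 without dabigatran replicate 1. An exon of Sgf29 on the opposite strand overlaps Sult1a1.

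Sult1e1, the estrogen sulfotransferase, had 18.0 and 63.2 FPKM with dabigatran, against 2.25, 16.8 and 3.49 FPKM in diet livers. Diet replicate 1 nearly reached dabigatran replicate 1, and the log2 difference was 2.58 ± 0.78 (limma adjusted p = 0.175), on 41 and 130 fragments against 6, 34 and 9. It was 1.68 without dabigatran replicate 2, 3.47 without dabigatran replicate 1 and 3.37 without diet replicate 1. Sult1b1, which sulfates thyroid hormones, was level, at 14.2 and 15.8 FPKM with dabigatran and 14.2, 14.5 and 12.8 FPKM in diet livers. Sult5a1 went the other way, with 5.81 and 6.45 FPKM with dabigatran, against 12.4, 8.72 and 13.7 FPKM in diet livers, and a log2 difference of -0.85 ± 0.24 (limma adjusted p = 0.160). The 2 groups did not overlap in this gene.

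The Sult2 genes, which sulfate steroids and bile acids, were at or near 0. Sult2a7 had 2.01 FPKM and was listed at 0 in the dabigatran libraries, against 2.87, 0.754 and 2.37 FPKM in diet livers, and the other Sult2 genes were listed at 0 in all libraries. In all, 11 of the 18 Sult genes were listed at 0 in every library, Sult1c1, Sult2a1 to Sult2a6, Sult2b1, Sult3a1, Sult4a1 and Sult6b1. An exact 0 in such tables can be a failed estimate. Sult1c2 was untested, at 0 and 0.348 FPKM with dabigatran and 1.88, 0.413 and 3.25 FPKM in diet livers. Summed Sult signal was 352 and 701 FPKM with dabigatran, against 213, 231 and 221 FPKM in diet livers.

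**Figure D4:**
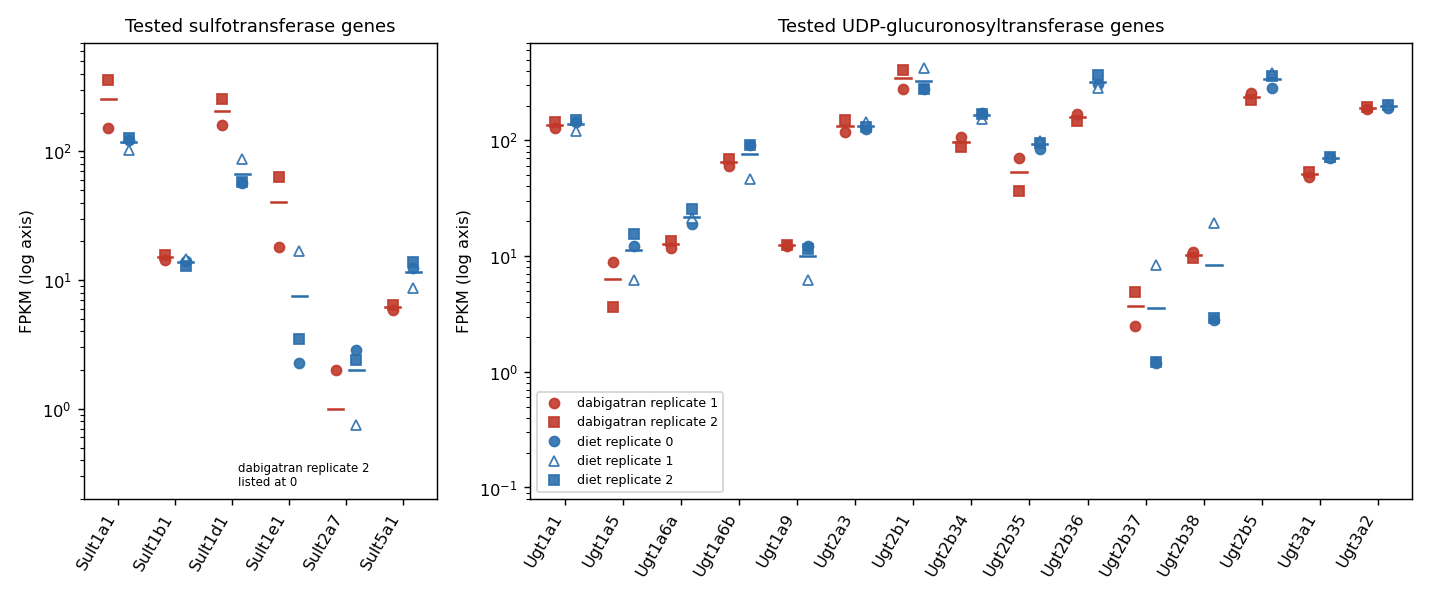
Level (y axis, FPKM, log axis) of the tested Sult genes (left) and Ugt genes (right) in the 2 dabigatran and 3 diet libraries. Points are libraries and short lines are group means. Sult2a7 is listed at 0 in dabigatran replicate 2, which is off the log axis but counts in the mean. Sult1d1 and Ugt2b36 have the smallest limma adjusted p of their families, 0.0591 and 0.0674.

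Ugt2b enzymes glucuronidate steroids, bile acids and many drugs, and 4 of the 8 tested Ugt2 genes had both dabigatran libraries below all diet libraries, as did 17.2% of all tested genes. Ugt2b36 had 169 and 148 FPKM with dabigatran, against 306, 286 and 368 FPKM in diet livers. The groups were well apart, and the log2 difference was -1.01 ± 0.18 (limma adjusted p = 0.0674). Ugt2b34 had 107 and 87.0 FPKM with dabigatran, against 174, 155 and 168 FPKM in diet livers, with a log2 difference of -0.77 ± 0.17 (limma adjusted p = 0.0932). It too did not overlap, and its diet libraries were within 1.13-fold of each other. Ugt2b35 had 70.4 and 36.3 FPKM with dabigatran, against 84.8, 98.5 and 94.7 FPKM in diet livers, and a log2 difference of -0.86 ± 0.27 (limma adjusted p = 0.188). Dabigatran replicate 2 lay lowest, and without it the log2 difference was -0.39.

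Ugt2b5 had 255 and 225 FPKM with dabigatran, against 282, 379 and 361 FPKM in diet livers, and a log2 difference of -0.50 ± 0.19 (limma adjusted p = 0.266). Of its windows, 41.7% occur in another gene, mostly Ugt2b38. Ugt2b1, the most abundant Ugt gene here, had 279 and 409.6 FPKM with dabigatran, against 279, 419.8 and 280.1 FPKM in diet livers, with overlap and a log2 difference of 0.08 ± 0.25. Diet replicate 1 stood apart again in Ugt2b38, at 10.9 and 9.70 FPKM with dabigatran and 2.81, 19.4 and 2.91 FPKM in diet livers. The same held for Ugt2b37, with 2.48 and 4.89 FPKM with dabigatran and 1.18, 8.38 and 1.22 FPKM in diet livers.

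The Ugt1a genes share their last exons on chromosome 1, and 52.1% to 80.2% of their windows occur elsewhere, mostly in each other, so the split of signal between them is uncertain. Ugt1a1, the bilirubin enzyme, was level at 127 and 145 FPKM with dabigatran and 143, 121 and 151 FPKM in diet livers. Ugt1a6a, which acts on small phenols, had 11.8 and 13.6 FPKM with dabigatran, against 19.0, 21.2 and 25.8 FPKM in diet livers, and a log2 difference of -0.76 ± 0.20 (limma adjusted p = 0.141). It was the single Ugt1a gene with both dabigatran libraries below all diet libraries. Ugt1a9 lay slightly above, with a log2 difference of 0.36, while Ugt1a5 and Ugt1a6b overlapped. Ugt3a1, whose human form uses N-acetylglucosamine in place of glucuronic acid, had 48.1 and 53.6 FPKM with dabigatran, against 70.2, 72.2 and 71.2 FPKM in diet livers. The log2 difference was -0.48 ± 0.16 (limma adjusted p = 0.210), and the 3 diet libraries were within 1.03-fold of each other. Ugt3a2 overlapped, and Ugt1a2 was listed at 0 in every library. Summed Ugt signal was 1465 and 1562 FPKM with dabigatran, against 1796, 1987 and 1975 FPKM in diet livers.

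Nuclear receptors such as CAR and PXR bind pairs of a site whose letters AGGTCA were searched singly on both strands in the same windows. A match was in 14.0% of all windows and in 10 of the 59 windows of members, which belong to 50 genes. The core and this site overlapped in 241 windows. The windows of Sult1e1 (chr5:87591612-87591861, minus strand) and Ugt2b36 (chr5:87092556-87092805, minus strand) are shown because they hold the site before a gene with higher and a gene with lower values. Capitals mark the site, read as its reverse complement TGACCT in Sult1e1. A match to so short a motif is a description alone.
Sult1e1: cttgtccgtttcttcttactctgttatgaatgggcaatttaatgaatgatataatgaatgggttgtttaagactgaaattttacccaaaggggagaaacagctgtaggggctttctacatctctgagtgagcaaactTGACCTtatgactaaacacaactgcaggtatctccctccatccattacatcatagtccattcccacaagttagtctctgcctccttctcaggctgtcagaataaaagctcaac
Ugt2b36: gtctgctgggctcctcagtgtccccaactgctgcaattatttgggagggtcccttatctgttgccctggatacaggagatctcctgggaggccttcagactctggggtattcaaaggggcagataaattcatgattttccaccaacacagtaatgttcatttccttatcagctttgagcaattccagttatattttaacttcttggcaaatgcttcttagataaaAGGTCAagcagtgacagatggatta

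A cluster on chromosome 5 (positions 86889767 to 87591594, 701.8 kb) holds 13 of the members, the Ugt2 genes at one end and Sult1b1, Sult1d1 and Sult1e1 at the other. Along it, Ugt2b34, Ugt2b35, Ugt2b36 and Ugt2b5 had lower values with dabigatran, and Sult1d1 and Sult1e1 had higher values. Ugt2b1, Ugt2b37, Ugt2a3, Ugt2b38 and Sult1b1 lie among these genes and overlapped. In the mu cluster, Gstm7 and Gstm2 overlapped. The other mu genes, with Gstm5 and Gstm4 at either end, were lower in both dabigatran libraries than in all diet libraries. Of all tested genes, 17.2% lay below in this way and 17.2% lay above. Gstm3, among these mu genes, was tested through its diet values alone.

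**Figure D5:**
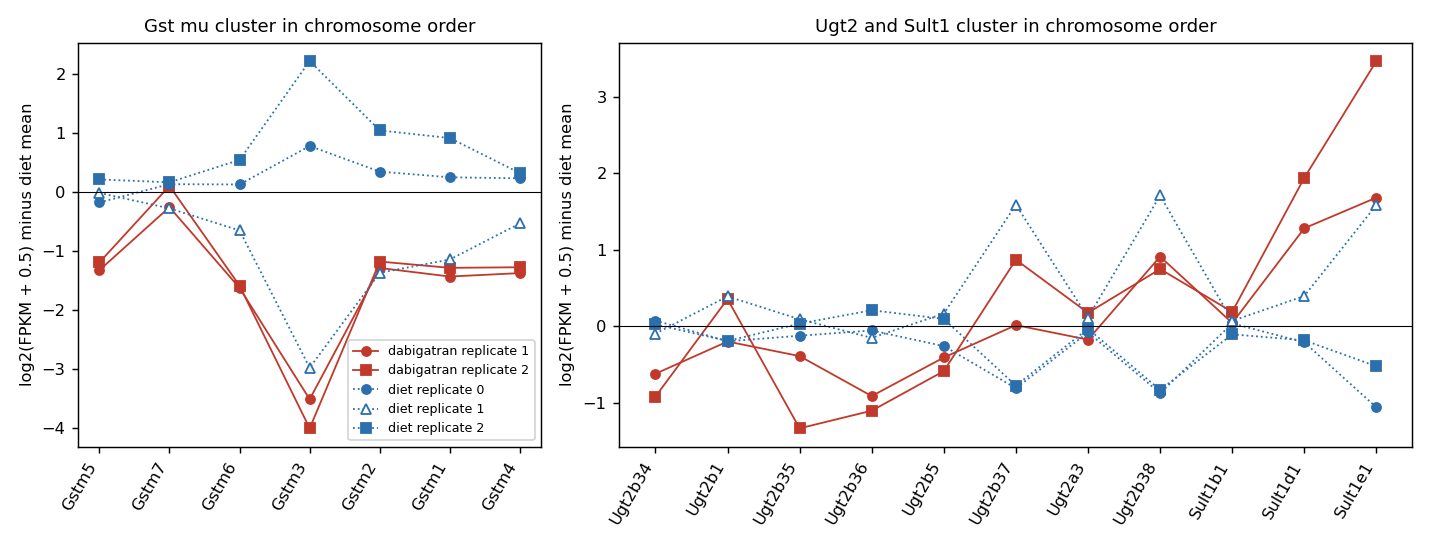
Deviation of each library from the diet mean (y axis, log2(FPKM + 0.5)) for the mu class Gst genes (left) and the Ugt2 and Sult1 genes (right), in chromosome order (x axis, evenly spaced). Lines join genes of 1 library and stand for no measurement between them. Diet replicate 1 (open triangles) follows the dabigatran libraries at Gstm3, Gstm2 and Gstm1.

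Diet replicate 1 was closer to the dabigatran mean than to the other diet libraries for 24 of the 38 tested members (63.2%), beside 46.9% of all tested genes. By family this was 13 of 17 Gst, 7 of 15 Ugt and 4 of 6 Sult genes. Without diet replicate 1, limma called 15 members, 11 lower and 4 higher, beside 199 lower (1.94%) and 95 higher (0.927%) of 10247 genes. The lower ones were Gsta2, Gsta3, Gsta4, Gstm1 to Gstm6, Gstt1 and Ugt2b36, and the higher ones Gstp1, Sult1d1, Sult1e1 and Ugt2b38. Of the lower ones, Gstm3 was tested through its diet values alone. Without dabigatran replicate 1, limma called 3 members, Sult1a1 and Sult1d1 higher and Ugt2b35 lower, beside 0.917% of all genes higher and 1.77% lower. Without any 1 of the other 3 libraries it called 0 members, beside at most 1 of all tested genes (0.00976%). The labels give no reason to leave diet replicate 1 out, and why it stands apart was not tested.

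Genes that supply the cofactors of these enzymes, or work beside them, were read from the same fit. Ugp2, which makes UDP-glucose, the precursor of UDP-glucuronic acid, fell to 46.3 and 49.8 FPKM with dabigatran, against 105, 97.2 and 99.9 FPKM in diet livers. Its groups were far apart, with a log2 difference of -1.06 ± 0.16 (limma adjusted p = 0.0448), and it was the single called gene of 13 tested cofactor genes. Leaving out 1 library gave it limma adjusted p-values of 0.0196 to 0.263, and of these 5 fits the call held without diet replicate 1 alone. Ugdh, Gclc and Gclm, for UDP-glucuronic acid and glutathione synthesis, were also lower at an unadjusted p under 0.05. In all, 4 of the 13 were lower at that p and 0 higher. The shares over all tested genes were 9.13% lower and 6.87% higher, with 0.429% called by limma. Slc35d1, Papss2, Slc26a1, Impad1 and Gss overlapped between the groups. Gclc, the catalytic subunit that sets the pace of glutathione synthesis, had 38.4 and 15.4 FPKM with dabigatran, against 97.5, 66.3 and 108 FPKM in diet livers (limma adjusted p = 0.0762).

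Of 14 tested transferases that the symbol rule leaves out, Gstz1 and the microsomal Mgst1 and Mgst3 among them, limma called 0, with 6 lower (among them Nat1, Tpmt, Glyat, Inmt and Hnmt) and 4 higher (Nnmt, Baat, Gnmt and As3mt) at an unadjusted p under 0.05. Nnmt, which methylates nicotinamide, had 303 and 434 FPKM with dabigatran, against 69.4, 177 and 53.2 FPKM in diet livers (limma adjusted p = 0.0902). Of 6 export and hydrolysis genes, limma called 0 and 3 were lower at an unadjusted p under 0.05, the exporters Abcc3 and Abcg2 and the epoxide hydrolase Ephx1. Abcc3, which carries glucuronides to blood, had 15.3 and 16.8 FPKM with dabigatran, against 64.7, 32.4 and 70.7 FPKM in diet livers (limma adjusted p = 0.0714). Of 12 regulators, limma called 0, with Nfe2l2 (the NRF2 gene) and Ppara lower and Ahr, Hnf4a and Rxra higher at an unadjusted p under 0.05. The shares to set beside these lists, over all tested genes, were 9.13% lower and 6.87% higher at that p, and 0.429% called. Nfe2l2 had 16.5 and 15.8 FPKM with dabigatran, against 27.6, 19.9 and 32.7 FPKM in diet livers (limma adjusted p = 0.219).

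Marker lists of liver cells were read beside these results, and their part in them was not tested. Hepatocyte markers were abundant in every library, with 0 of 10 called. At an unadjusted p under 0.05, 4 were higher, Tat, Apoa1, Fgb and Serpina1a (log2 differences 1.99, 1.06, 0.86 and 0.60), and 0 lower. Ttr, not at that p, had a log2 difference of -0.54. The shares over all tested genes were 6.87% higher and 9.13% lower at that p. Hepatocyte marker sums, in which Alb was the largest value, were 42134 and 55271 FPKM with dabigatran, against 38840, 39406 and 41718 FPKM in diet livers. Of 8 cholangiocyte markers 3 were tested and 0 called (1 higher at an unadjusted p under 0.05). The 8 summed to 17.3 to 45.4 FPKM with dabigatran, against 37.1 to 56.2 FPKM in diet livers, mostly from Spp1. Cldn7 was listed at 0 in both dabigatran libraries and in diet replicates 0 and 1. Macrophage markers (8 of 8 tested, with Adgre1 listed under its older symbol Emr1, 0 called and 0 at an unadjusted p under 0.05) summed to 209 to 299.9 FPKM with dabigatran, against 211 to 281 FPKM in diet livers. Of endothelial markers 7 of 7 were tested and 0 called. At that p 2 were higher, Lyve1 and Stab1 (log2 differences 1.19 and 0.87), and 1 was lower, Clec4g (-0.76). Their sums, which mix these opposite differences, were 96.8 to 97.0 FPKM with dabigatran, against 94.4 to 97.6 FPKM in diet livers. Of stellate cell markers 6 of 8 were tested and 0 called, and 1 was lower at that p, Col3a1 (log2 difference -1.82). Their sums, mostly from Dcn, were 94.6 to 100.04 FPKM with dabigatran, against 94.5 to 140.6 FPKM in diet livers. Lymphocyte and neutrophil markers (2 of 7 tested, 0 called and 0 at that p) summed to 2.75 to 43.8 FPKM with dabigatran, against 4.74 to 20.2 FPKM in diet livers, and Cd8a was listed at 0 in all.

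Levels of several phase II genes differ between the sexes in mouse liver, and the labels give no sex. The Y-linked genes Ddx3y, Kdm5d, Eif2s3y and Uty were present in all 5 libraries, and Xist was at most 0.043 FPKM in any. Of 9 genes known to be higher in male mice, all tested, limma called 0. At an unadjusted p under 0.05, 1 was higher and 1 lower, beside 6.87% and 9.13% of all tested genes. The sum of the 9 was 19812 and 19701 FPKM with dabigatran, against 12150, 22724 and 12251 FPKM in diet livers. Diet replicate 1 was the highest of the 5 libraries in this sum, which Mup20 dominates. Of 8 genes known to be higher in female mice, 1 was tested, Acot3, which limma did not call and which was lower at an unadjusted p under 0.05. The list summed to 2.29 and 1.59 FPKM with dabigatran, against 11.9, 2.03 and 10.3 FPKM in diet livers.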

How the data were processed

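Liver RNA of C57BL/6 mice was sequenced after TruSeq RNA library preparation, per the labels' protocols. The authors deposited 1 table per sample with an FPKM value per gene, per the file headers. The submitters' processing notes name the builds GRCm38 and mm10 and the tools TopHat2 2.0.4, TopHat, Cuffdiff, CASAVA and R 2.15.1, without saying which did what. Not given in the sources used here were the annotation, the use of strand, how fragments matching more than 1 gene were treated, and any scaling of libraries to each other. FPKM depends on the library total, so a few abundant genes can lower the rest.

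Libraries were grouped by the labels. Dabigatran replicates 0 and 1 were identical, so replicate 0 was not analysed separately and the test, planned on distinct libraries, ran on 3 diet and 2 dabigatran libraries. Genes that reached 1 FPKM in 3 or more of these were tested on log2(FPKM + 0.5) with limma 3.58.1 in R 4.3.3 (lmFit, eBayes with a variance trend, two-sided, Benjamini-Hochberg over 10247 genes, threshold 0.05). SE is on the log2 scale. The fit was tested on simulated data with independent noise drawn from its own variance estimates. That test cannot show how a library such as diet replicate 1 affects the calls.

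Members and lists were chosen with earlier results of these data known. Named with every library's value are members with an unadjusted p under 0.05 and the 3 most abundant of each family, and of other lists those with an unadjusted p under 0.05 by name. Other members were given values after they were seen. A gene of the list of other transferases is not reported here. Fragments are the smallest whole numbers in the ratio of a gene's values at the relative depths (tolerance 0.0001), which 8078 tested genes (78.8%) and 23 tested members met. Windows of 50 bases were compared between GENCODE M21 transcripts. Promoter windows came from RefSeq GRCm38.p6, in which 50 members had one. Alternatives changed the pseudocount, filter, scaling, variance trend, replicate term and library set.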

Additional observations from a re-analysis of the deposited data

How the results depend on the processing

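The count of 44 called genes became 23 with a pseudocount of 0.1, 0 without a filter on low values, 27 after quantile normalization, 0 without a variance trend and 13 with a replicate block. Leaving out 1 library gave 0 to 294. The called members went from 0 to 1 after upper-quartile scaling (Sult1d1) and to between 0 and 15 when 1 library was left out. Members at an unadjusted p under 0.05 numbered 9 to 19 lower and 2 to 7 higher when 1 library was left out, with the lowest counts of both without dabigatran replicate 2 and the highest without diet replicate 1. Of all tested genes, 6.54% were lower and 3.32% higher at that p without dabigatran replicate 2, and 10.5% and 8.24% without diet replicate 1. The 1 called gene of the other lists, Ugp2, was not called (0) with a pseudocount of 0.1, without a filter, after quantile normalization, without a variance trend or with a replicate block, and 0 to 7 genes were called when 1 library was left out. The median Sult difference was 0.11 without a filter, 1.00 at a minimum of 5 FPKM and 0.25 to 0.91 when 1 library was left out. The median Ugt difference was -0.33 at a minimum of 5 FPKM and -0.42 to -0.064 when 1 library was left out, and that of Gst was -1.28 to -0.65. The difference of Ugt2b1 was -0.022 with a replicate block and between -0.20 and 0.35 when 1 library was left out. The cause of these changes was not tested.

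The replicate numbers were not taken to pair the libraries: the labels name nothing shared, and deviations of same-numbered libraries had correlations of -0.045 and -0.025 over 2 pairs. Deviations of 2 dabigatran libraries mirror each other, and the number of the library deposited under both 0 and 1 is uncertain, so this check and the replicate block (0 members called) say little. Of 583 values of single named genes under the alternatives, 26 newly passed the threshold, 9, all of Ugp2, no longer did, and 4, all of Ugt2b1, changed sign. With 2 dabigatran libraries, differences of low genes such as Gstm5 and Gstp2 rest on few fragments.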
